A study of Mus musculus with 45 samples.

Results

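The 88 cytoplasmic ribosomal protein genes of the mouse gene table were followed across whole uterus, endometrium and myometrium of wildtype (WT) and Plag1 knockout (Plag1KO, KO) females. Members were chosen by symbol: Rplp0, Rplp1, Rplp2, Rpsa, and every Rpl or Rps symbol that runs directly into a number, leaving out the Rps6k kinases, Rps19bp1 and symbols marked as pseudogenes by "-ps". This gave 54 Rpl genes, which name proteins of the large ribosomal subunit, and 34 Rps genes, which name proteins of the small subunit, of 24422 genes in all. The choice used names and no measured value, but it was made with earlier results of these data known.

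A cytoplasmic ribosome is built from ribosomal RNA and a set of ribosomal proteins, of which most are needed in a single copy per ribosome. Their mRNAs are among the most abundant in growing cells. Most begin with a stretch of pyrimidines, the 5′ terminal oligopyrimidine tract, through which nutrient and growth signals acting by mTOR set how strongly they are translated. Several genes have paralogues, such as Rpl22l1, Rpl36al and Rps27l, whose proteins can take the place of the main form. The protein of Rpl5 also binds the ubiquitin ligase MDM2 when ribosome assembly is disturbed.

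The series held 45 libraries of 42 tissue samples from 14 CD-1 mice, an outbred stock, with 7 mice per genotype and each of the 3 tissues from each mouse. The WT mice were numbers 1, 3, 5, 7, 8, 10 and 12, and the KO mice were 2, 4, 6, 9, 11, 13 and 14. In the KO mice a lacZ cassette stands in place of the Plag1 coding region. All females, WT and KO, were 1 to 3 months old and had received 5 IU of pregnant mare serum gonadotropin and then 5 IU of human chorionic gonadotropin, so that no group was free of hormone treatment. Uterus was a piece of intact horn, endometrium was the scraped mucosa and myometrium was the muscle wall left behind. Each library was made from 10 ng of RNA by STRT, which reads the 5′ end of a polyadenylated transcript and marks each molecule, so that a long and a short mRNA each give 1 tag and levels were not scaled by length.

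No library, WT or KO, held more than 1 count of Plag1, so that the genotype labels could not be checked with it. Epithelial and smooth muscle markers fitted the tissue labels on the whole: the summed level of Krt8, Krt18, Krt19, Epcam and Cdh1 was 756 to 4730 CPM in the 14 endometrium samples and 77.7 to 670.1 CPM in the 14 myometrium samples. CPM are counts scaled to the same total of gene counts in each sample. The summed level of 5 smooth muscle markers was 13649 to 31399 CPM in myometrium, and in endometrium it was 10029 CPM in WT mouse 3 and 10332 CPM in KO mouse 13 against 197 to 3601 CPM in the other samples. Gene counts per sample ran from 256298 to 2431043. In bulk tissue, fewer cells of a type and less RNA per cell cannot be told apart.

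Together the members held 10823129 of 31794045 gene counts, which was 34.0% of all molecules counted. The count table held 0 rows with the prefix mt-, which marks genes encoded in the mitochondrion, so this total has none under that prefix. In uterus their share was 35.4% ± 3.0 in WT mice and 35.4% ± 4.3 in KO mice (SD, n = 7 in each group here and below). It was 33.5% ± 3.7 in WT endometrium and 33.4% ± 3.5 in KO endometrium, and 32.8% ± 2.1 in WT myometrium and 32.2% ± 1.6 in KO myometrium. The ranges overlapped in every tissue, from 30.1 to 38.9% in WT uterus and 29.4 to 42.5% in KO uterus, from 28.1 to 39.1% and 27.2 to 37.0% in endometrium, and from 29.7 to 35.9% and 30.1 to 34.98% in myometrium. No test was run on this summed value.

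**Figure D1:**
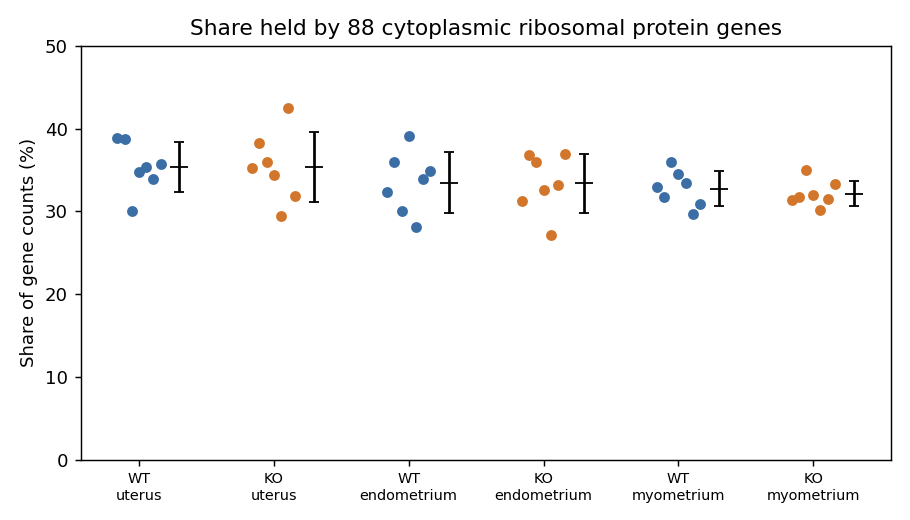
Share of gene counts (percent) held by the 88 members in each sample, by tissue and genotype; points are mice and the bar beside them is the mean with its SD. The 6 means lie between 32.2 and 35.4% and all ranges overlap.

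The share of large subunit genes was 18.9 to 21.0% as a group mean, and that of small subunit genes was 13.1 to 14.5%. Within a mouse, the endometrium share minus the myometrium share was 0.73 percentage points ± 4.7 in WT, above 0 in 4 of 7 mice, and 1.2 ± 2.6 in KO, above 0 in 5 of 7. For comparison, the 77 genes of mitochondrial ribosomal proteins, which build the separate ribosome of that organelle, held 0.72 to 0.89% of counts as a group mean. The cytoplasmic family made up 32 of the 40 most abundant rows of the table.

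The members spanned a wide range of levels. Rps14, whose protein sits in the small subunit, was the highest at 14446 CPM, taken as the mean of the 6 group means. Rpl35a followed at 11776 CPM, Rps27a, a fusion of ubiquitin with a ribosomal protein, at 9968 CPM, and Rpl6 at 9554 CPM. Rpl37a was at 9318 CPM, Rps29 at 9250 CPM and Rpl21 at 8261 CPM. The 8 highest members held 23.6% of the family's counts. Of the 8, 6 stayed among the 8 highest in each of the 6 groups: Rps14, Rpl35a, Rps27a, Rpl6, Rpl37a and Rps29.

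In all, 69 members reached 1000 CPM and 76 reached 100 CPM, and the median member stood at 3554 CPM. The 12 others fell off steeply. Rpl7l1 was at 42.4 CPM, Rpl30 at 10.8 CPM, Rps27 at 5.85 CPM, Rpl34 at 5.75 CPM and Rpl26 at 2.17 CPM, although the last 4 of these encode proteins of the standard ribosome. Rps4l was at 3.77 CPM, Rpl37rt at 3.51 CPM, Rpl3l at 0.51 CPM and Rpl39l at 0.12 CPM. Rpl32l had 1 count over all libraries, and Rpl10l and Rps27rt had 0. How the authors' counting treated reads that match several places, and whether it used strand, was not stated.

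**Figure D2:**
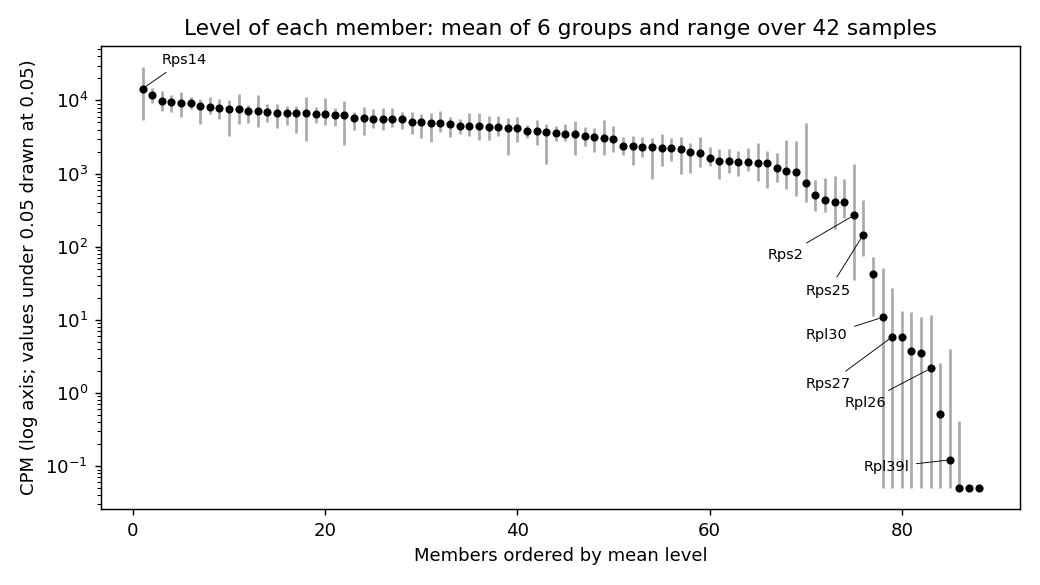
Level of the 88 members in CPM on a log axis, ordered by the mean of the 6 groups (points), with the lowest to the highest of 42 samples as a line; values under 0.05 are drawn at 0.05. The curve is shallow down to about 1000 CPM, where 69 members lie, and drops steeply over the last 12.

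Copies of these genes scattered through the genome were counted in the NCBIM37 assembly (mm9), as places that match the first 100 coding bases at 95% identity or more over at least 95 bases. The longest annotated coding sequence of each gene was used, which was 3153 bases for Rpl24 and 1272 bases for Rpl13a. Whether these begin with the bases of the ribosomal protein itself was not checked, so their count of 0 copies is uncertain. Members with 20 or more such copies had a median of 3983 CPM and those with 5 to 19 copies 3606 CPM. Those with 1 to 4 copies had 4282 CPM and those with none 1768 CPM. The class with none ran from 0.12 to 7566 CPM and that with 5 to 19 copies from 0 to 9968 CPM. Rpl30 (12 copies), Rps27 (8), Rpl34 (9) and Rpl26 (9) were low members of the class with 5 to 19, and how their reads were shared among copies is uncertain. The table also held the row Gm6654, an annotated pseudogene (chr6:146595724-146596135, minus strand), with group means of 4769 to 6058 CPM. Its sequence matches the coding sequence of Rps26 at 97.4% over 348 bases, so that levels of Rps26 (7912 CPM) and this row are uncertain. The same holds for Rpl14 and the row Rpl14-ps1, which match at 98.7%.

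Paralogues stood below their partners in each pair but one. Rpl3, Rpl7, Rpl10, Rpl39 and Rps4x stood at 2287, 3473, 7742, 2337 and 4708 CPM, against 0.51, 42.4, 0, 0.12 and 3.77 CPM for Rpl3l, Rpl7l1, Rpl10l, Rpl39l and Rps4l. Rpl36al (1507 CPM) and Rpl22l1 (414 CPM) came closer to Rpl36a (5738 CPM) and Rpl22 (1625 CPM). In the last pair the order was turned: Rps27l, a gene known as a p53 target, was at 501 CPM and Rps27 at 5.85 CPM. Rps27 has 8 near-identical copies by the count above and Rps27l has 0. The level of Rps27 also lies within the 1.23 to 11.7 CPM that 3 counts gave across samples, so the order in this pair is uncertain. Of the acidic stalk genes, Rplp0 was at 6496 CPM, Rplp2 at 5620 CPM and Rplp1 at 1045 CPM, and Rpsa, also known as the laminin receptor, was at 2371 CPM.

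The 5′ ends of these genes share a feature that the rule did not use. An unbroken run of at least 8 pyrimidines (letters C and T only, on the gene's own strand), anywhere from 50 bases before to 50 bases after the annotated start, was present in 54 of 67 members with a RefSeq entry (80.6%). The same window held such a run in 24 of 69 mitochondrial ribosomal protein genes (34.8%) and in 10614 of 27025 genes in all (39.3%). Windows of 30 bases centred on the annotated start are printed below from RefSeq (GRCm38.p6, a later build than that of the count table), with the longest pyrimidine run in the window in capitals. Rpl7a, Rpl35 and Rpl15 show long runs at or near the start, Rpl36al, Rps25 and Rpl5 are members called between tissue layers in 1 genotype, with the limits given there, and Rps28 is a member with no run of 8 in the longer window.
Rpl7a: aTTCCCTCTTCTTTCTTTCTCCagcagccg
Rpl35: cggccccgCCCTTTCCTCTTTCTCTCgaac
Rpl15: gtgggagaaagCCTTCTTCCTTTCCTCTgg
Rpl36al: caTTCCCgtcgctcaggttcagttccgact
Rps25: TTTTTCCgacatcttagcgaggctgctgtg
Rpl5: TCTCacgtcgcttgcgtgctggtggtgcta
Rps28: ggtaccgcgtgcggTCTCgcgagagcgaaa
These windows lie at chr2:26910792-26910821 (plus strand) for Rpl7a, chr2:39005117-39005146 (minus) for Rpl35, chr14:18270972-18271001 (minus) for Rpl15, chr12:69184053-69184082 (minus) for Rpl36al, chr9:44407699-44407728 (plus) for Rps25, chr5:107900513-107900542 (plus) for Rpl5 and chr17:33824548-33824577 (minus) for Rps28. A match describes letters in a window and not a site in use.

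Members varied little between mice of a group. For the 69 members at 1000 CPM or more, the within-group SD of log2(CPM + 1) had a median of 0.22, against 0.40 for the 82 other genes at that level. Rps24 (0.13) and Rps29 (0.14) varied least. The widest spreads among members above 100 CPM belonged to Rps2 (1.04), Rps28 (0.62), Rps14 (0.62) and Rps25 (0.43).

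The first comparison asked whether the loss of Plag1 went with a change of ribosomal protein genes in uterus. In the fit of KO against WT uterus, 0 of 83 members tested passed (edgeR quasi-likelihood test, Benjamini-Hochberg adjusted p under 0.05), and 0.0% of 12959 genes passed. At an unadjusted p under 0.05, 0 members and 5.64% of genes were found, and with DESeq2 0 members passed. Of the 83, 78 had a fitted log2 fold change within 0.3 of 0. The median of the members was 0.08 and that of all genes −0.05, with 67 members above 0 and 16 below, against 45.3% of all genes above 0. This direction turned with library sizes scaled by the spike-ins, which moved the median of all genes by −0.32: 3 members were then above 0 and 80 below, with 80.6% of all genes below 0. Under that scaling 29 members (34.9%) and 13.0% of genes had an unadjusted p under 0.05, and 0 members and 0 genes passed the adjusted threshold. Ranges of KO and WT overlapped for every member tested, where 0.0694% of genes had ranges that did not.

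The smallest p in uterus was that of Rps2, a small subunit protein near the mRNA entry site (log2 fold change −1.37 ± 0.67, SE; adjusted p = 0.872 by edgeR). Rps2 was at 51.4, 56.9, 59.4, 76.1, 110.0, 137.7 and 1347 CPM in the WT mice and at 34.7, 45.2, 52.8, 57.6, 72.5, 144.1 and 283.4 CPM in the KO mice. A single WT sample, that of mouse 8, stood far above all others, and the rest overlapped. Without WT mouse 8 the log2 fold change was 0.35. Rps2 has 17 near-identical copies in the genome by the count above, and how reads were shared among them is uncertain. The next members by p were Rps27 (−0.83 ± 0.50), Rps27l (0.29 ± 0.20), Rpl30 (0.58 ± 0.45) and Rpl37rt (0.66 ± 0.56). Rps27, Rpl30 and Rpl37rt had group means of 2.69 to 11.5 CPM there, near the 2.45 to 6.17 CPM that 3 counts gave in these samples. The libraries of 5 WT and 3 KO mice stood in the upper plate rows (A to C) and those of 2 WT and 4 KO mice in the lower ones (D to F). The difference of mean log2(CPM + 1) turned from upper to lower rows for Rps27, from −1.02 to 0.29, and for Rpl30, from 0.37 to −0.08.

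In endometrium, the mucosa to which an embryo attaches, 0 of 83 members passed and 0.0% of 13004 genes did. At an unadjusted p under 0.05 there were 2 members (2.41%) against 5.20% of genes, and with DESeq2 0 members passed. The median of the members was 0.10 and that of all genes 0.02, and 72 members lay within 0.3 of 0. The ranges of KO and WT overlapped for every member tested, where 0.1% of genes had ranges that did not. The 2 members were Rps2 (−1.47 ± 0.37, adjusted p = 0.598 by edgeR) and Rplp1, of the ribosomal stalk (−0.52 ± 0.23, adjusted p = 0.937). Rps2 was at 164.8, 168.9, 184.3, 248.0, 530.6, 949.9 and 1233 CPM in WT and at 103.3, 107.0, 118.2, 149.7, 173.9, 217.6 and 224.1 CPM in KO. The 4 highest samples were all WT, and the other 3 WT samples lay among the KO samples.

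Of these 4, mice 1 and 5 also had the lowest gene counts of the 14 endometrium samples (256298 and 299973) and the highest spike-in shares (2.95 and 2.79%). Rplp1 was highest in the same pair, at 1931 and 2767 CPM, where the other WT samples ran from 910 to 1272 CPM and the KO samples from 627 to 1136 CPM. Without both mice the log2 fold change of Rplp1 was −0.23 and that of Rps2 −1.06, and without mouse 8 that of Rps2 was −1.23. Rps12 (−0.52 ± 0.26), Rps28 (−0.42 ± 0.24) and Rpl24 (−0.32 ± 0.22) followed by p. Rps12 stood at 2872 CPM in WT mouse 12, above the 1967 CPM of WT mouse 5 and the 730 to 1405 CPM of the other WT samples. In the upper rows the difference of mean log2(CPM + 1) of Rps2 was −1.78, while the lower rows gave −0.15.

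In myometrium, the contractile wall, 0 of 83 members passed and 0.0% of 12991 genes did. At an unadjusted p under 0.05, 1 member (1.20%) and 4.22% of genes were found, and with DESeq2 0 members passed. The medians were −0.02 for the members and −0.03 for all genes, and 76 members lay within 0.3 of 0. Ranges overlapped again for every member tested, against 0.077% of genes without overlap. The single member was again Rps2 (−0.97 ± 0.31, adjusted p = 0.925 by edgeR), at 1213 CPM in WT mouse 8 and 156 to 328 CPM in the other WT samples against 141 to 297 CPM in KO. Without WT mouse 8 its log2 fold change was −0.32. Mouse 8 had thus the highest Rps2 of the WT samples in uterus and myometrium and the second highest in endometrium.

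Rps28 had the second smallest p in myometrium (0.72 ± 0.37, adjusted p = 1.00). It stood at 4859 CPM in KO mouse 4 and at 416, 441, 498, 571, 580 and 594 CPM in the other KO samples, with 407 to 987 CPM in WT. A single KO sample stood far above every other myometrium sample, and without it the log2 fold change was −0.29. In uterus and endometrium of the same mouse Rps28 was at 568 and 852 CPM, and 8 near-identical copies make its level uncertain as well. Rpl34 (−1.04 ± 0.65), Rps25 (−0.31 ± 0.19) and Rps27 (−1.11 ± 0.69) followed, and Rpl34 and Rps27 were at 1.87 to 5.94 CPM as group means. In the upper and in the lower plate rows the difference of mean log2(CPM + 1) was 0.84 and −0.21 for Rps28, −0.65 and 0.04 for Rps25 and −1.50 and 0.05 for Rps27.

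**Figure D3:**
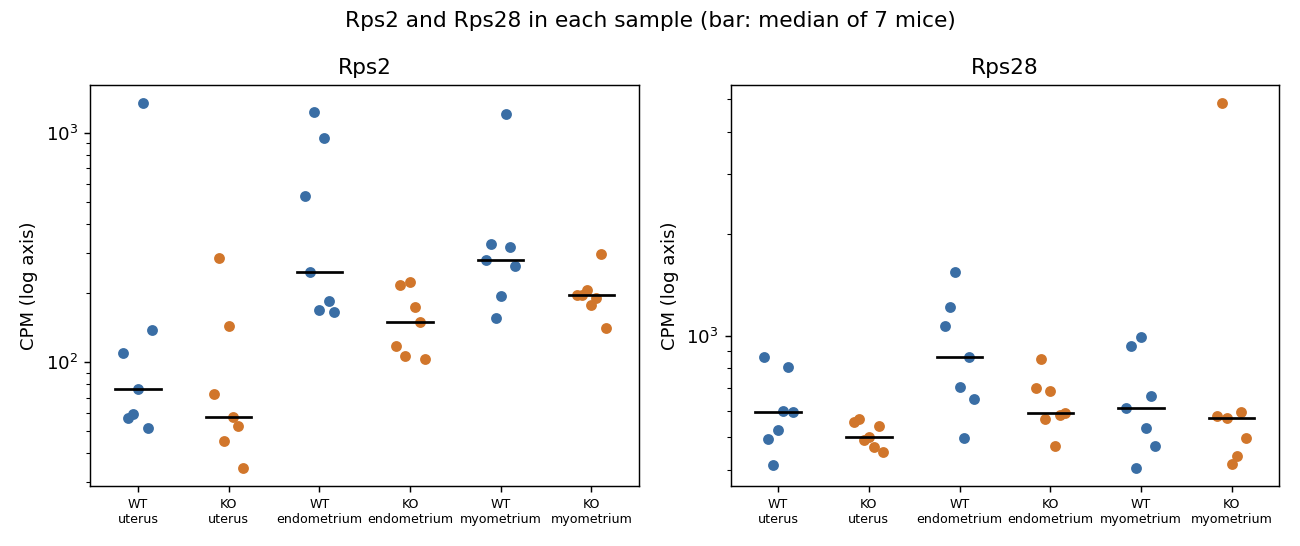
Rps2 and Rps28 in CPM on a log axis in each of the 42 samples, by tissue and genotype, with the median of 7 mice as a bar. WT mouse 8 gives the single high points of Rps2 in uterus (1347) and myometrium (1213), and KO mouse 4 that of Rps28 in myometrium (4859).

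The layers of the same mice differed in far more genes than the genotypes, and with TMM factors (trimmed mean of M-values), the scaling used throughout unless another is named, the share of ribosomal protein genes called was below that of all genes. Apart from repeat libraries, myometrium stood in plate rows B and E and endometrium in rows C and F. A difference between layers and a difference between these rows thus cannot be told apart. In WT, 2 of 83 members passed, both lower in endometrium than in myometrium, where 13.2% of 13227 genes passed (6.81% higher and 6.39% lower). The medians were 0.00 for the members and 0.01 for all genes, and 64 members (77.1%) lay within 0.3 of 0 against 31.4% of genes. At an unadjusted p under 0.05 there were 8 members (9.64%) and 24.8% of genes. In KO, 2 of 83 members passed, both higher in endometrium, where 19.3% of 12969 genes passed (10.6% higher and 8.71% lower). The medians were 0.10 and 0.08, and 61 members (73.5%) lay within 0.3 of 0 against 28.6% of genes, with 8 members (9.64%) and 31.0% of genes at an unadjusted p under 0.05. With factors from relative log expression 2 members were higher and 1 lower in KO, and with spike-in scaling, which moved the median of all genes by 0.50, 23 (27.7%) were higher and 0 lower, where 20.3% of all genes were higher and 3.23% lower.

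Rps14 was lower in endometrium in WT by a log2 fold change of −1.0 ± 0.23 (adjusted p = 0.0038 by edgeR). In WT endometrium it stood at 7481, 7526, 8100, 8437, 8468, 13641 and 14265 CPM, and in WT myometrium at 10499, 11286, 12031, 21924, 21998, 22679 and 25542 CPM. All 7 mice had less in endometrium, although the ranges of the layers overlapped. With spike-in scaling the call was lost (−0.82, adjusted p = 0.128). In KO the difference was −0.87 ± 0.31 and missed the threshold (adjusted p = 0.0527), but it passed with the mouse as a block (adjusted p = 9.13e-05), and again 7 of 7 mice had less in endometrium. The KO samples ran from 5388 to 16311 CPM in endometrium and from 8875 to 28634 CPM in myometrium.

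Rps14 was the most uneven of the abundant members. In uterus 5 mice stood at 22519 to 26510 CPM (WT mice 1, 3 and 10, KO mice 2 and 9), and the other 9 at 7873 to 18232 CPM. In myometrium 7 mice stood at 20735 to 28634 CPM (WT mice 5, 7, 8 and 12, KO mice 4, 6 and 14), and the other 7 at 8875 to 13229 CPM. No mouse was in the higher range in both tissues, and both ranges held both genotypes. The same 5 mice were the 5 highest in uterus for Rps3 (4648 CPM or more, others 3686 CPM or less) and for Rpl22. The same 7 were the 7 highest in myometrium for Rps3, Rps7, Rpl13a and Rpl5.

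Repeat libraries of a sample lay close together in Rps14, at 7635, 9378 and 9411 CPM for endometrium of KO mouse 13 and at 20380 and 23359 CPM for myometrium of WT mouse 12. By plate rows, 3 of 8 samples of the upper and 2 of 6 of the lower rows were in the higher range in uterus, and 5 of 8 and 2 of 6 in myometrium. The part of the plate rows in these values was not tested.

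Rpl5, which carries the 5S ribosomal RNA into the large subunit, was the second member called in WT (−0.60 ± 0.20, adjusted p = 0.0467 by edgeR). It stood at 1007, 1409, 1587, 1589, 1695, 1727 and 1731 CPM in endometrium and at 1840, 1871, 2096, 2140, 2320, 2459 and 2496 CPM in myometrium. The ranges did not overlap, which was so for 1 of 83 members and 3.33% of genes. With the mouse as a block the adjusted p was 0.0607, with spike-in scaling it was 0.642 (−0.33), and without any 1 of the 7 mice it was 0.0521 to 0.151. In KO the difference was −0.30 ± 0.18 (adjusted p = 0.270), with less in endometrium in 6 of 7 mice. Rpl9 (−0.59 ± 0.21, adjusted p = 0.0541), Rpl36al (0.52 ± 0.21) and Rpl13a (−0.46 ± 0.19) followed in WT, and Rpl9 and Rpl13a were lower in endometrium in 7 of 7 mice.

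Rpl36al, the autosomal paralogue of the X-linked Rpl36a, was higher in KO endometrium (0.63 ± 0.18, adjusted p = 0.0158 by edgeR). It stood at 1526, 1677, 1678, 1759, 1816, 1985 and 2095 CPM in KO endometrium and at 916, 1032, 1054, 1169, 1170, 1252 and 1450 CPM in KO myometrium. The ranges did not overlap, as for 2 of 83 members and 5.80% of genes. WT ran from 1337 to 2020 CPM in endometrium and from 846 to 1344 CPM in myometrium, with more in endometrium in 6 of 7 mice and a log2 fold change of 0.52 that missed the threshold. The partner Rpl36a had group means of 6030 and 5619 CPM in WT endometrium and myometrium and 5678 and 5402 CPM in KO.

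Rps25, a small subunit protein known for its part in starting translation at internal entry sites, was higher in KO endometrium (0.72 ± 0.21, adjusted p = 0.0193 by edgeR). It stood at 113, 133, 138, 197, 244, 255 and 274 CPM in endometrium and at 76.6, 97.2, 111, 119, 124, 133 and 137 CPM in myometrium. All 7 mice had more in endometrium, and the ranges overlapped, with 4 of 7 myometrium samples above the lowest endometrium sample. Neither Rpl36al nor Rps25 passed without KO mouse 13 (adjusted p = 0.0554 and 0.0829) or without KO mouse 4 (0.0790 and 0.0775). Rpl36al also missed without mouse 6 or 14, and Rps25 without mouse 9 or 11. With spike-in scaling both passed, at 1.12 for Rpl36al and 1.21 for Rps25. In WT the difference of Rps25 was 0.29 ± 0.25, and a single WT endometrium sample, that of mouse 5, was at 437 CPM against 122 to 195 CPM in the others. Rpl28 (0.48 ± 0.19, adjusted p = 0.0827) and Rpl18 (0.39 ± 0.17) followed in KO. The members called between layers have near-identical copies in the genome too: 8 for Rps25, 7 for Rpl5, 2 for Rps14 and 1 for Rpl36al. How reads were shared among these copies is uncertain.

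**Figure D4:**
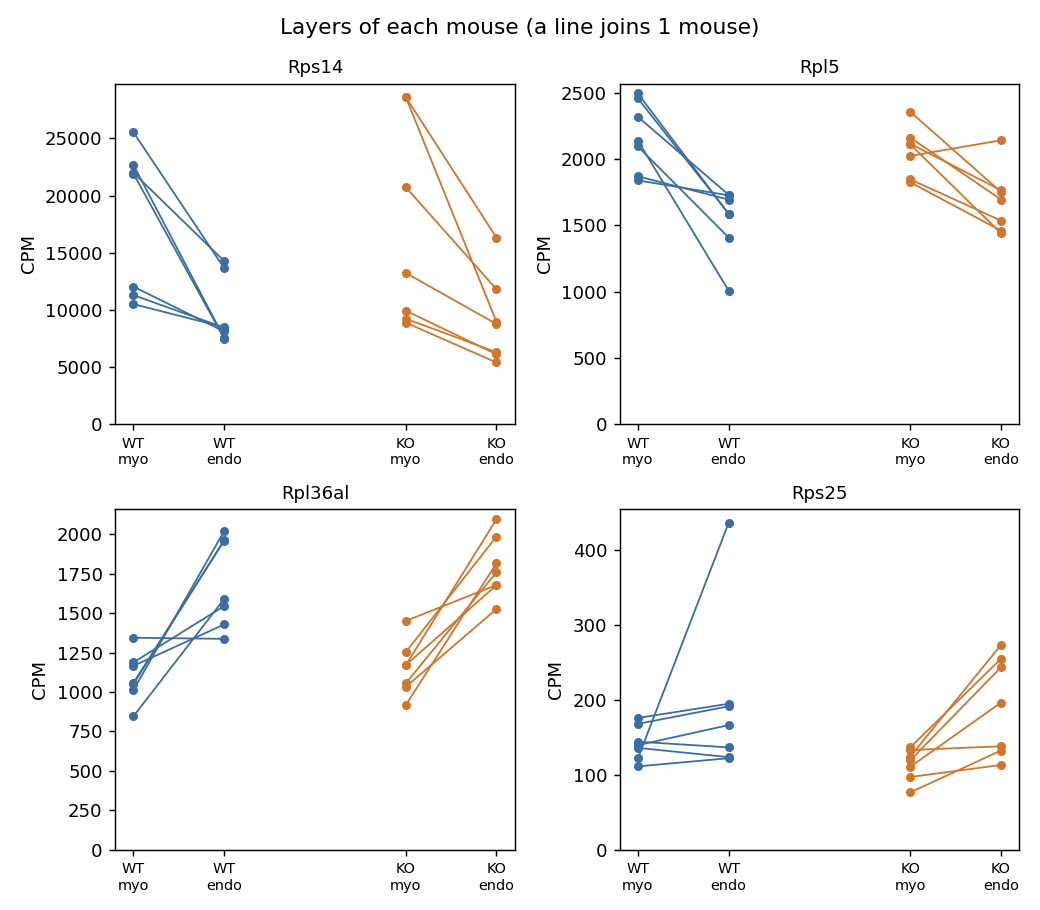
Levels in CPM of Rps14, Rpl5, Rpl36al and Rps25 in myometrium and endometrium, with a line for each mouse, WT at left and KO at right in each panel. All 14 mice have less Rps14 in endometrium, and 13 of 14 have more Rpl36al there.

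Whether the layer difference itself differed between the genotypes was tested by an interaction term. There were 0 calls among 84 members and 0.0% of 14314 genes. At an unadjusted p under 0.05 there was 1 member (1.19%) against 4.60% of genes, and with DESeq2 0 members passed. That member was Rps28 (−1.13 ± 0.52, adjusted p = 0.993 by edgeR), whose value was −0.19 without KO mouse 4. Rps12, Rpl26, Rpl9 and Rps25 came next by p. The term of Rps14 was 0.14 ± 0.42, of Rpl5 0.31 ± 0.26, of Rpl36al 0.12 ± 0.27 and of Rps25 0.42 ± 0.33 (adjusted p = 0.993 for Rps25 by edgeR), so that none of the members called in 1 genotype alone was shown to differ between them.

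**Figure D5:**
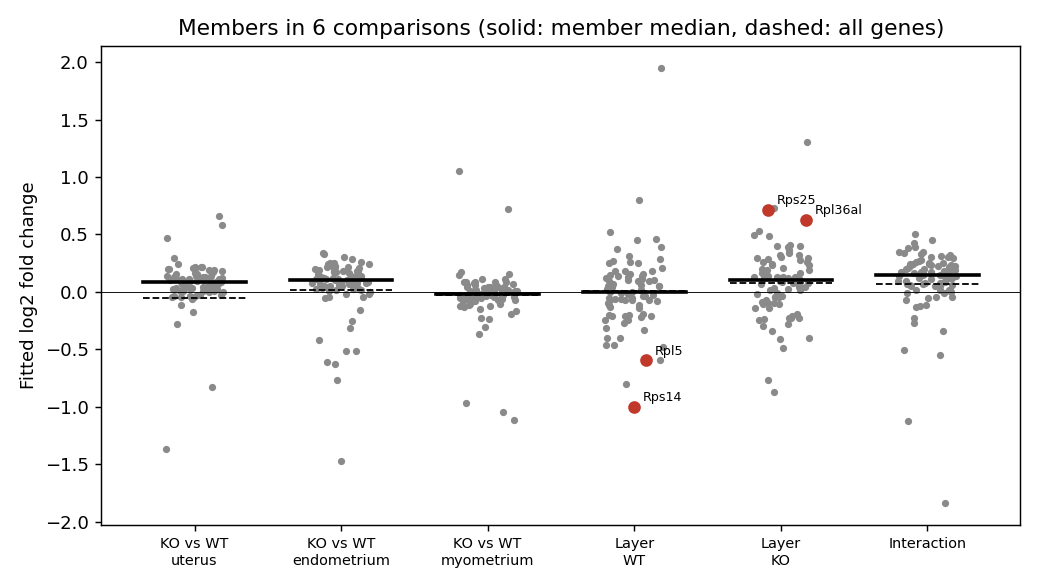
Fitted log2 fold changes of the members tested in each of the 6 comparisons (points; 83 members, and 84 for the interaction), with the member median as a solid line and the median of all genes as a dashed line. Layer means endometrium against myometrium; large labelled points are the 4 calls, Rps14 and Rpl5 in WT and Rpl36al and Rps25 in KO.

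Other parts of the translation apparatus were read from the same fits. In the 3 comparisons of genotypes and in the interaction, 0 genes passed in any list: Fau and Rack1, which encode ribosomal proteins but fall outside the symbol rule, mitochondrial ribosomal proteins, elongation factors, initiation factors, other mRNAs known for a pyrimidine tract, ribosome biogenesis factors and upstream regulators. Fau and Rack1 also had 0 calls between layers.

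Between layers, ribosome biogenesis factors had 5 of 76 higher in WT endometrium and 9 of 76 in KO endometrium (6.58 and 11.8%) and 0 lower in either, with medians of 0.31 and 0.28. These shares lay near the 6.81 and 10.6% of all genes that were higher. They included Nhp2, a protein of the box H/ACA particles that modify ribosomal RNA (0.84 ± 0.24 in WT and 1.01 ± 0.19 in KO). Of 77 mitochondrial ribosomal protein genes, 0 passed in WT and 12 were higher in KO endometrium, among them Mrpl40 (0.88 ± 0.20), with medians of 0.08 and 0.19. The 12 were 15.6% of that list, beside the 10.6% of all genes higher in KO, and the 0 in WT stood beside 6.81%. Of 39 initiation factors, 1 was higher in WT, Eif6, which keeps the ribosomal subunits apart (0.70 ± 0.23), and in KO 4 were higher, Eif6 among them, and 1 lower, Eif4a2. For this and the following lists the shares of all genes called were 13.2% in WT and 19.3% in KO.

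Of 8 elongation factors 0 passed in WT and 1, Eif5a (0.71 ± 0.21), was higher in KO. Of 22 other mRNAs with a tract, 0 passed in WT and 2, Nap1l1 and Vim, were lower in KO endometrium. Of 21 upstream regulators, 2 were higher in WT (Mycn and Rps6ka1), and in KO the same 2 were higher and 2 were lower (Rps6ka3 and Gabpa). Beside these stood the markers of cell type: all 5 epithelial markers were higher and all 5 smooth muscle markers and 4 of 5 stromal markers were lower in endometrium in both genotypes. Of 5 leukocyte markers 2 were higher, Laptm5 and Cd52, and of 4 mesothelial markers 2 were lower in KO, Upk3b and Msln, with 0 calls among 5 endothelial and 1 erythroid marker tested. Their part in the layer values of the ribosomal protein genes was not tested.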

How the data were processed

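The authors deposited 1 table of raw counts for 24422 gene symbols and 92 ERCC spike-ins in 45 libraries, with no scaling. The submitters' notes name HTSeq and build mm9, and the methods of the study name TopHat for alignment and Homer for counting over UCSC gene models. How reads with several positions were treated, and strand, are not given in the sources used here. Repeat libraries of a mouse were summed, which gave 42 samples. Library totals with spike-ins were 264095 to 1232992 counts, which set the precision, and a floor of 3 counts covers counting error only.

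Each fit took the genes that reached 1 CPM in 5 or more of its samples. The test was edgeR's quasi-likelihood test (version 4.0.16, TMM factors, R 4.3.3), and p-values were adjusted by Benjamini-Hochberg over all these genes and called under 0.05. Standard errors are the log2 fold change over the square root of F. DESeq2 1.42.0 was an alternative. The script was tested on simulated data. Comparisons were KO against WT per tissue, endometrium against myometrium per genotype, and their interaction. Mouse numbers in the labels pair the tissues of an animal: deviations of endometrium and myometrium of a mouse correlated at 0.03 to 0.16 across 14314 genes, and mouse entered as a block in an alternative. The p-values of KO against WT measure the spread between mice. The main fits between layers and of the interaction left the pairing out and took the layers of a mouse as independent samples. With the mouse as a block, p-values measure the spread of the layer difference between mice.

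The members and lists were chosen with earlier results of these data known. Named were the paralogue pairs, Rplp0, Rplp1, Rplp2 and Rpsa, the 8 highest and the lowest members, and in each comparison the members called or the 5 of smallest p. Of other lists, up to 3 calls per direction could be named. Rps3, Rps7, Rpl22 and Rps26, the least variable members, and the ones printed with a sequence were named after their values were seen. Some genes that this rule names are not reported here. Columns of no sample numbered 0.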

Additional observations from a re-analysis of the deposited data

Results flagged for a closer look

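Among 41 named members and the summed share, each in 6 groups of 7 mice, 15 of 252 groups had a highest or lowest sample apart from the other 6 by more than Dixon's limit for the gap over the range of log2(CPM + 1), where chance gives about 1 in 20. The share itself had no such sample.

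Rps2 was at 1347 CPM in uterus of WT mouse 8 (others 51.4 to 137.7 CPM) and at 1213 CPM in its myometrium (others 155.8 to 327.6 CPM). Rps28 was at 4859 CPM in myometrium of KO mouse 4 (others 416.1 to 593.7 CPM), which was the widest gap, 0.86 of the range.

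Endometrium of WT mouse 5, the second lowest of its group in gene counts, was apart in 4 members: Rps25 was high at 436.7 CPM, and Rpl10 (3267 CPM, others 6254 to 9543), Rpl21 (4707 CPM, others 7975 to 9453) and Rpl5 (1007 CPM, others 1409 to 1731) were low. Uterus of KO mouse 11, with the lowest gene counts of the uterus samples (485887), was low in Rpl7 (1788 CPM, others 3238 to 4409) and Rpl36a (3925 CPM, others 5275 to 6536).

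In WT mouse 1, Rpl10 was low in uterus at 6629 CPM (others 7669 to 8203) and Rpl36a high in myometrium at 6753 CPM (others 5217 to 5659). Rpsa was low in uterus of WT mouse 10 at 1927 CPM (others 2457 to 2809). The remaining 3 were members of a few counts: Rpl37rt at 0 CPM in uterus of WT mouse 12 and at 10.8 CPM in endometrium of WT mouse 8, and Rpl34 at 0 CPM in endometrium of WT mouse 3.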

How the results depend on the processing

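In the 3 comparisons of genotypes and in the interaction, the count of members called stayed at 0 under every alternative run. Between layers it moved. In WT, against 2 members, 4 were called by DESeq2 (4.82%, beside 14.4% of all genes), 1 with the deepest library per mouse (12.8% of genes), 1 with no gene filter (10.9%), 0 with spike-in scaling (10.7%), and 1 or 2 without any 1 mouse (9.05 to 14.1%). In KO, against 2, there were 23 with spike-in scaling (27.7%, beside 23.5% of genes), 4 at an adjusted p under 0.1 (25.4%), and 0 to 2 without any 1 mouse (14.8 to 18.0%), with 0 when mouse 4 or mouse 13 was left out. Spike-in scaling moved the median of all genes by −0.32 in uterus, 0.26 in endometrium, −0.04 in myometrium, 0.21 and 0.50 between layers in WT and KO, and 0.28 in the interaction, and the members moved with it: in uterus 80 of 83 were then below 0, with 80.6% of all genes. Relative to all genes their median there was 0.10, against 0.13 with TMM factors.

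With the mouse as a replicate block, 1 member (Rps14) was called between layers in WT, where Rpl5 was lost, and in the interaction 10 of all genes were called and 0 members. In KO the block added Rps14. It changed no other call among the named members.

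Calls among all genes were 0 for the genotypes, but in endometrium 1 by DESeq2 and 7 with all 6 groups in 1 fit, and in myometrium 1 with spike-in scaling, 3 with no gene filter and 0 or 1 without 1 mouse. Between layers in WT they ran from 1158 to 1825 without 1 mouse, the lowest without mouse 10. Leaving the 10 most abundant other genes out of the total can only raise the share of the members. It was then 38.4% in WT and 38.7% in KO uterus, 36.0 and 36.2% in endometrium, and 35.8 and 35.3% in myometrium.

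With spike-in scaling most members turned in uterus, where 67 were above 0 with TMM factors and 3 after it. Counting only members named in a comparison because they were called or among the 5 of smallest p, directions turned for 3. None of these had passed. In uterus Rps2 was at 0.37 by DESeq2 and 0.35 without WT mouse 8, and Rps27l at −0.053 with spike-in scaling. In myometrium Rps28 was at −0.27 by DESeq2, and without 1 mouse it ran from −0.29 (mouse 4) to 0.71. Of 27 pairs of a member and a tissue compared within plate rows (9 members), 9 had opposite directions in the upper and lower rows. The cause of these changes was not tested, apart from the mouse left out. Leaving out a mouse other than KO 13 or WT 5, and leaving out WT mice 1 and 5 together, were chosen after seeing the data. Depth limits the members under 20 CPM, for which 3 counts equal 1.23 to 11.7 CPM depending on the sample.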
